A study of Rattus norvegicus with 8 samples.

Results

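The genes described here serve protein folding in the endoplasmic reticulum (ER) and the stress response of that compartment. They were taken from a list of 40 gene names, and 37 of the 40 had at least 1 named feature on the arrays, out of 14871 named genes measured. Ern1 and Xbp1, which encode the sensor IRE1-alpha and its transcription factor, and Derl2 had no named feature and were not analysed here. The 37 genes were read by 60 features, and 16 of the genes by more than 1.

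Expression was measured in hippocampi of male Wistar rats aged 13 weeks, all with an electrode aimed at the right lateral hypothalamus and 7 days of recovery before box sessions of 20 min. The ICSS group (intracranial self-stimulation, in which the rat triggers rewarding current itself) took 2500 stimulation trains, and the Sham group was handled alike, spent 40 min in the box and received no current. Each of the 4 ICSS and 4 Sham samples pooled the electrode-side hippocampi of 3 rats, so neither single animals nor cell types can be told apart, and fewer cells of a type cannot be told from less RNA per cell. Every value is the log2 ratio of a pool (Cy5) to a common brain reference (Cy3) on 1 array per pool, and a difference between groups is ICSS minus Sham on that scale. The labels describe the reference both as hippocampus alone and as hippocampus, thalamus and cortex. The sources used here do not give the time from session to dissection.

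Secreted and membrane proteins fold in the ER with the help of chaperones such as BiP and of disulfide isomerases. When unfolded proteins accumulate, the sensors ATF6, IRE1 and PERK start the unfolded protein response. Cleaved ATF6 and the XBP1 protein made after IRE1 splicing induce chaperones and degradation factors, while PERK phosphorylates eIF2-alpha, which slows translation and favours translation of ATF4, an inducer of amino acid metabolism genes and of Ddit3. In neurons the ER also processes receptors, ion channels and neuropeptide precursors and stores calcium.

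Over all arrays, 16 of 34738 units (named genes and unnamed probes) passed a limma adjusted p of 0.05, or 0.0461%, and 0 of the 37 genes were among them. At an unadjusted limma p below 0.05, 11 of the 37 genes were higher and 2 lower in ICSS pools, where 6.79% of all named genes were higher and 6.36% lower. All ICSS pools lay above all Sham pools for 8 of the 37 genes and below them for 1, against 4.66% and 4.32% of all named genes. The median difference was 0.12 over the 37 genes and 0.0069 over all named genes. The higher values lay mostly among the chaperones: all 15 measured chaperone and foldase genes had higher ICSS than Sham means, and 8 of the 15 were higher at an unadjusted p below 0.05. Over all named genes 52.6% had a higher mean in ICSS pools.

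The regional markers placed the pools in the hippocampus. The mean log2 ratio over 9 hippocampal neuron markers was 0.52 to 0.65 over the ICSS pools and 0.70 to 0.82 over the Sham pools, without overlap. Neurod6 and C1ql2 were highest, with means of 1.77 and 1.83 in ICSS and 1.69 and 2.41 in Sham pools. C1ql2 also had the largest difference of the 9, -0.58. Spink8 and Lct lay near the reference, with group means from -0.098 to -0.0013. The mean over 8 thalamic markers lay between -1.05 and -0.70 in all pools. Sham replicate 4 had the lowest correlations with other arrays, from 0.586 to 0.779. Sham replicate 1 stood apart in 9 choroid plexus markers, with a mean of 0.85 against -1.43 to -0.89 in the other Sham pools and -0.87 to 0.058 in ICSS pools. Choroid plexus is a secretory epithelium that can adhere to dissected hippocampus. The part of these differences in the other results was not tested.

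Creld2, whose product is a secreted ER-stress protein with a disulfide isomerase activity, had the smallest p of the 37 genes. Its log2 ratio was 0.26, 0.28, 0.30 and 0.22 in ICSS replicates 1 to 4, against -0.098, -0.090, -0.31 and -0.17 in Sham replicates 1 to 4. All ICSS pools were above the reference and all Sham pools below it, and the groups were 0.31 apart at their closest, more than the range within either group. The difference was 0.43 (SE 0.062), or 1.35-fold, with a limma adjusted p of 0.0576, which misses the threshold. Adjusted p values for Creld2 ran from 0.0400 with named genes only to 0.221 without ICSS replicate 2, while the difference stayed between 0.39 and 0.46. Creld2 was read by 1 feature, as were Hspa5, Pdia3, Pdia4, P4hb, Calr and Dnajc3 among the chaperone and foldase genes. Agreement between features cannot be checked for these genes.

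Manf encodes a secreted neurotrophic factor that is retained in the ER until stress releases it. Its values were -0.038, 0.051, -0.043 and -0.078 in ICSS pools and -0.30, -0.31, -0.37 and -0.49 in Sham pools. The groups did not overlap, and the Sham pools all lay below the reference. The difference was 0.34 (SE 0.061, limma adjusted p = 0.0972), and its 2 features gave 0.32 and 0.36. With each feature tested on its own, the Creld2 feature and 1 Manf feature passed the threshold, at limma adjusted p of 0.0494 and 0.0498. Both lie at its very edge, and the number of all features called in that fit is not given here.

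Hsp90b1, the gene of the ER paralog of HSP90 (GRP94), stood at 0.11, 0.076, 0.14 and 0.075 in ICSS pools and at -0.11, -0.12, -0.18 and -0.082 in Sham pools. Here too every ICSS pool was above the reference and every Sham pool below it. The difference was smaller than for Creld2, 0.22 (SE 0.051, limma adjusted p = 0.153), with 0.20 and 0.24 from its 2 features.

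Hspa5 encodes BiP, the main ER chaperone and a standard readout of the unfolded protein response. Its mean difference of 0.42 (SE 0.12, limma adjusted p = 0.224) was close to that of Creld2, but its pools were scattered. The ICSS pools stood at -0.25, 0.20, -0.12 and 0.17, and the Sham pools at -0.48, -0.65, -0.35 and -0.19. ICSS replicate 1 lay below Sham replicate 4, so the groups overlapped by that pair alone. Without ICSS replicate 1 the difference was 0.50, and without Sham replicate 2 it was 0.34.

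Pdia4, a protein disulfide isomerase gene, was level with the reference in ICSS replicate 1 and below it in the other pools, at -0.0040, -0.44, -0.24 and -0.36 in ICSS and -0.66, -0.54, -0.52 and -0.56 in Sham pools. The groups did not overlap, yet ICSS replicate 1 was far above the other ICSS pools, and the difference of 0.31 (SE 0.091, limma adjusted p = 0.223) shrank to 0.23 without it. Dnajb9, the gene of the BiP cochaperone ERdj4, stood at 0.13, 0.22, 0.11 and 0.077 in ICSS and -0.030, -0.052, -0.032 and -0.13 in Sham pools. Its difference was 0.20 (SE 0.056, limma adjusted p = 0.212), and all 3 features were higher, by 0.13 to 0.29.

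**Figure D1:**
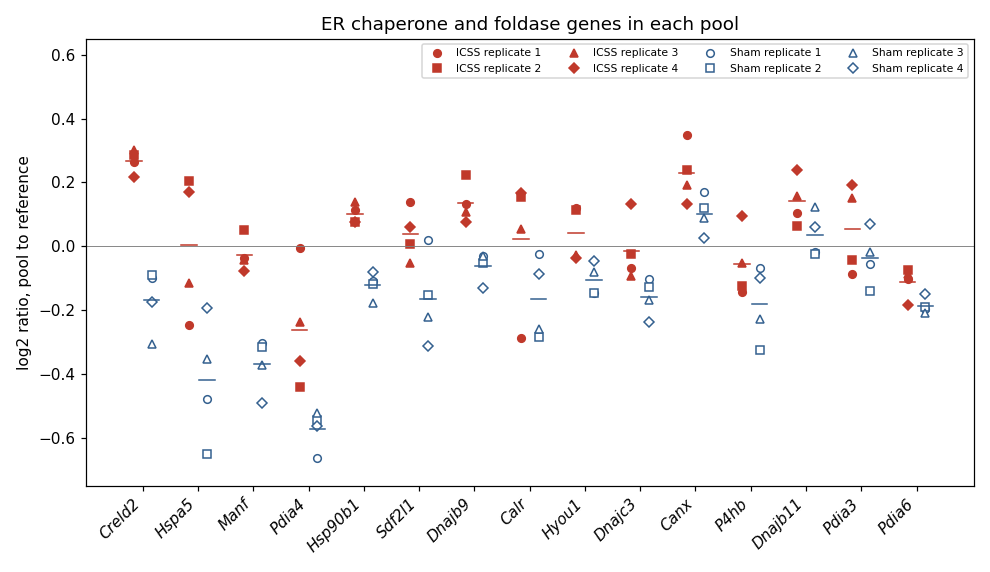
Log2 ratio of each pool to the reference for the 15 chaperone and foldase genes, in order of the difference between groups; filled red symbols are ICSS pools, open blue symbols Sham pools, symbol shape marks the replicate number and short lines mark group means. The groups are fully apart for Creld2, Manf, Pdia4, Hsp90b1, Dnajb9, Hyou1 and Dnajc3, while pools of both groups cross for the other 8, through ICSS replicate 1 for Hspa5 and Calr.

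Sdf2l1, whose product assists BiP, stood at 0.14, 0.0063, -0.052 and 0.060 in ICSS and 0.020, -0.15, -0.22 and -0.31 in Sham pools. Sham replicate 1 lay within the ICSS range. The difference was 0.20 (SE 0.079, limma adjusted p = 0.331), but its 3 features ranged from 0.074 to 0.39, so the size depends on the feature read. Hyou1, the gene of the ER chaperone GRP170, was at 0.12, 0.11, -0.027 and -0.037 in ICSS and -0.15, -0.15, -0.081 and -0.047 in Sham pools. The groups were apart by only 0.010 between ICSS replicate 4 and Sham replicate 4. The Hyou1 difference was 0.15 (SE 0.061, limma adjusted p = 0.358), and 0.090 with the median over its 3 features. Dnajc3, the gene of the cochaperone p58IPK that also restrains PERK, was at -0.069, -0.024, -0.094 and 0.13 in ICSS and -0.10, -0.13, -0.17 and -0.24 in Sham pools. It differed by 0.15 without overlap (SE 0.065, limma adjusted p = 0.396).

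The other 6 chaperone genes differed by 0.074 to 0.19 with overlapping groups, and their limma adjusted p lay between 0.440 and 0.578, except for Pdia3 at 0.668. Calr and Canx, the lectin chaperones calreticulin and calnexin of glycoprotein folding, differed by 0.19 (SE 0.11) and 0.13 (SE 0.063). The 4 features of Canx ranged from -0.049 to 0.34. Calr was at -0.29 in ICSS replicate 1, level with its lowest Sham pool, and at 0.054 to 0.17 in the other ICSS pools. P4hb and Pdia6, both disulfide isomerase genes, differed by 0.12 (SE 0.078) and 0.074 (SE 0.051), Dnajb11, the gene of the BiP cochaperone ERdj3, by 0.11 (SE 0.061), and Pdia3, the isomerase that works with calnexin, by 0.089 (SE 0.079).

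The chaperone and foldase genes were also read as 1 mean per pool. That mean was 0.016, 0.047, 0.026 and 0.060 in ICSS replicates 1 to 4 and -0.14, -0.20, -0.18 and -0.16 in Sham replicates 1 to 4. The groups were 0.037 ± 0.020 and -0.17 ± 0.027 (SD, n = 4 each), without overlap. No p is given for such a mean, because the genes were listed with earlier results of these arrays known. The difference of 0.21 stayed between 0.20 and 0.22 whichever pool was left out, and it was 0.18 without Creld2 and Manf. Within the ICSS group each of the 4 pools was the highest for 2 to 5 of the 15 genes. Sham replicate 1, the pool high in choroid plexus markers, had the highest Sham mean, and the difference without it was 0.22.

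The ER stress response element (ERSE) of chaperone promoters, which ATF6 binds together with NF-Y, consists of CCAAT and CCACG with 9 bases between them. RefSeq windows (build GRCr8, from 250 bases before to 50 after a start listed for the gene) were listed for 32 of the 40 genes and for 27457 genes in all, and both strands were searched. Manf, Pdia3, Pdia6, Sec61a1, Atf6, Ero1a, Derl1 and Ern1 were not matched. ERSE was spelled out exactly in the windows of 21 genes, or 0.0765% of all, and 8 of these 21 are in the list of 40, among them Creld2, Hspa5, Hsp90b1, Calr, Dnajc3, Ero1b and Xbp1. The elements of the measured genes named here are printed because 6 of the 12 measured chaperone and foldase genes with a window share them, Creld2, Hspa5 and Hsp90b1 included. Each is given 5′ to 3′ in the direction of the element with 10 flanking bases on each side, CCAAT and CCACG in capitals.
Creld2, chr7:121789239-121789257, minus strand: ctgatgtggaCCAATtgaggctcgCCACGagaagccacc
Hspa5, chr3:38452973-38452991, plus strand: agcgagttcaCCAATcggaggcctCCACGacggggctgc
Hsp90b1, chr7:23012451-23012469, minus strand: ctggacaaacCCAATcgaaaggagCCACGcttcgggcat
Hsp90b1, chr7:23012347-23012365, plus strand: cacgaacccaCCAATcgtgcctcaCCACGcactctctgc
Calr, chr19:40213135-40213153, minus strand: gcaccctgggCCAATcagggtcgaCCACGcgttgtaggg
Dnajc3, chr15:102432534-102432552, plus strand: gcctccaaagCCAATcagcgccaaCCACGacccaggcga
Ero1b, chr17:92941458-92941476, minus strand: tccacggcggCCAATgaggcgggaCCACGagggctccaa

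The coordinates are those of the elements. The windows of Creld2 and Ero1b lie inside the outermost bounds that RefSeq gives for these genes, at a start other than the first. Hsp90b1 holds the element on both strands of its window, and the Hspa5 element starts 43 bases before the gene start, just upstream of the TATA box in the window shown here whole (chr3:38452766-38453065, plus strand, with the same capitals).
Hspa5 promoter: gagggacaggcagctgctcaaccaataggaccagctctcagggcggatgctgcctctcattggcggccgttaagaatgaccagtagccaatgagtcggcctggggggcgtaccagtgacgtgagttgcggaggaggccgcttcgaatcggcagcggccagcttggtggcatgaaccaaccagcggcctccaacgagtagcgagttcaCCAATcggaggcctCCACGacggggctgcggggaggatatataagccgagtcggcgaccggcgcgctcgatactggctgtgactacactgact

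Among the 12 measured chaperone and foldase genes with a window, the 6 with ERSE had differences from 0.13 to 0.43 with a median of 0.20, and the 6 without it had differences from 0.11 to 0.31 with a median of 0.17. The ranges overlap. The shorter ERSE-II, ATTGG and CCACG with 1 base between them, was found in the windows of 17 genes in all (0.0619%), among them Hyou1, Dnajb11 and Herpud1, whose differences were 0.15, 0.11 and -0.059. None of these 3 windows held ERSE. The 9 measured genes outside the list that hold ERSE differed by -0.17 to 0.086 with a median of -0.0094, and 4 of the 9 were higher in ICSS pools. A match of letters is a description of the window and does not show binding.

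Of the sensors, the transcription factors and the PERK substrate eIF2-alpha, all 4 measured genes had a higher mean in ICSS pools. They differed by 0.062 to 0.15, with 0 at an unadjusted limma p below 0.05. Their mean per pool ran from -0.084 to 0.0089 over the ICSS group and from -0.21 to -0.090 over the Sham group, just without overlap. This separation depends on the centring of the arrays. The lowest ICSS value came from replicate 1, whose array median was 0.0162, against -0.0227 for Sham replicate 2, the highest Sham pool. With each array centred on its median the groups would overlap. Atf6, the gene of the sensor that becomes a chaperone activator, was at -0.060, 0.024, 0.097 and 0.11 in ICSS and 0.14, 0.18, -0.28 and -0.44 in Sham pools. Sham replicates 1 and 2 lay above every ICSS pool and Sham replicates 3 and 4 below every one, so the difference of 0.15 (SE 0.13, limma adjusted p = 0.678) is smaller than the Sham spread. Atf4, the transcription factor gene downstream of PERK, was at -0.42, -0.27, -0.23 and -0.48 in ICSS and -0.57, -0.49, -0.32 and -0.26 in Sham pools. The groups overlapped and differed by 0.062 (SE 0.086, limma adjusted p = 0.793). ATF4 is controlled mainly through translation, which an array does not read. Eif2ak3, the gene of PERK, differed by 0.082 (SE 0.086) and Eif2s1, the gene of its substrate eIF2-alpha, by 0.12 (SE 0.083).

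Of the 6 PERK-ATF4 targets 2 had a higher and 4 a lower mean in ICSS pools, with a median difference of -0.032. Ddit3, the gene of the transcription factor CHOP, stood at 0.14, 0.31, 0.39 and 0.37 in ICSS and 0.018, -0.033, 0.18 and 0.029 in Sham pools. ICSS replicate 1 fell below Sham replicate 3, and the other ICSS pools lay above all Sham pools. The difference was 0.25 (SE 0.073, limma adjusted p = 0.217), and 0.31 without ICSS replicate 1. Sesn2, the gene of the stress sensor sestrin 2, was at -0.34, -0.38, -0.27 and -0.099 in ICSS and -0.15, -0.21, 0.0055 and 0.026 in Sham pools. The groups overlapped and differed by -0.19 (SE 0.081, limma adjusted p = 0.379). It was the PERK-ATF4 target with the lowest difference.

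Asns, the asparagine synthetase gene and a classical ATF4 target, stood above the reference in all pools, at 0.63 to 0.77 over the ICSS group and 0.71 to 0.94 over the Sham group. Its difference was -0.14 (SE 0.066, limma adjusted p = 0.422). Trib3, the gene of a pseudokinase that feeds back on ATF4, ranged from -0.44 to 0.013 over ICSS pools and from -0.55 to -0.31 over Sham pools. It differed by 0.18 (SE 0.10). Ppp1r15a, the gene of the inducible phosphatase subunit GADD34, differed by -0.058 (SE 0.063) and Chac1, a glutathione-degrading enzyme gene, by -0.0058 (SE 0.057). Ppp1r15b, the constitutive counterpart of Ppp1r15a, differed by 0.073 (SE 0.059).

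The ATF4-type element TGATGNAA, read on both strands, was present in the windows of 4.16% of all genes and in 2 of the 6 PERK-ATF4 targets, Trib3 and Chac1. It was also present in Ppp1r15b and Herpud1, and none of the 6 PERK-ATF4 windows held ERSE. The other 4 targets and the 12 chaperone and foldase windows held none. The elements of the 2 targets are shown as examples of this motif.
Trib3, chr3:161275547-161275554, plus strand: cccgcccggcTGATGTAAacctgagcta
Chac1, chr3:126795964-126795971, minus strand: ctagcaggagTGATGCAAcggcggagaa

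The mean over the 6 PERK-ATF4 targets was -0.014, -0.0067, 0.10 and 0.12 in ICSS replicates 1 to 4 and -0.023, -0.015, 0.10 and 0.11 in Sham replicates 1 to 4. The groups covered nearly the same range, with a difference of 0.0066 that turned to -0.0061 with each array centred on its median. Subtracting this mean from the chaperone mean of the same pool gave 0.030, 0.054, -0.078 and -0.058 in ICSS and -0.12, -0.19, -0.28 and -0.27 in Sham pools. All ICSS pools lay above all Sham pools on this measure, by 0.20 on average and by 0.18 to 0.24 with any 1 pool left out. Both arms come from the same arrays, and the number of genes differs, 15 against 6.

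**Figure D2:**
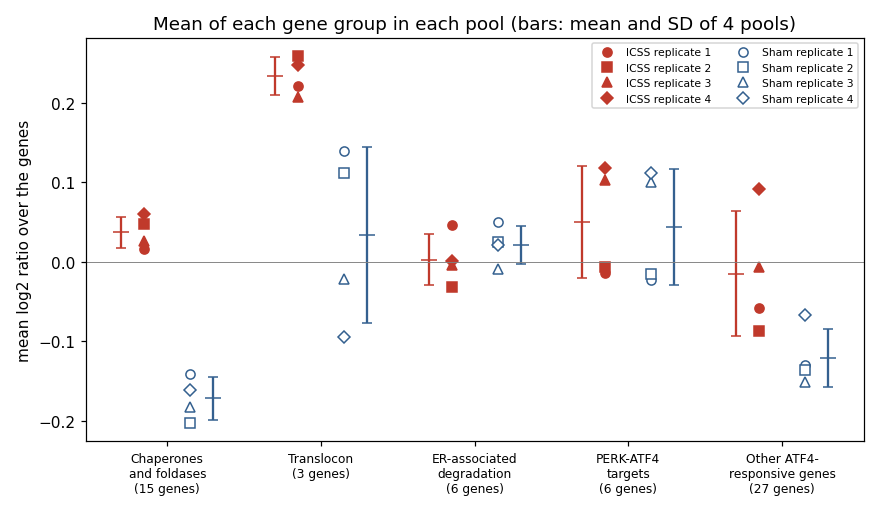
Mean log2 ratio over the genes of each group, 1 symbol per pool (filled red ICSS, open blue Sham, shape by replicate number) and bars for the mean and SD of 4 pools. The ICSS and Sham pools are apart for the chaperones, at 0.016 to 0.060 against -0.20 to -0.14, and lie on the same 2 levels for the PERK-ATF4 targets.

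ER-associated degradation, which returns misfolded proteins to the cytosol for the proteasome, was read by 6 genes. Of these 2 had a higher and 4 a lower mean in ICSS pools, and the mean per pool was 0.0029 ± 0.032 in ICSS and 0.022 ± 0.024 in Sham (SD, n = 4 each). Sel1l, the gene of the adaptor of the HRD1 ubiquitin ligase, was the gene of the 37 whose ICSS pools all lay below the Sham pools. It stood at -0.020, 0.0033, -0.096 and -0.16 in ICSS and 0.061, 0.13, 0.13 and 0.14 in Sham pools. The difference was -0.18 (SE 0.057, limma adjusted p = 0.248), with -0.22 and -0.14 from its 2 features. Syvn1, the gene of HRD1 itself, differed by -0.059 (SE 0.070).

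Herpud1, an ER membrane protein gene that is a strong target of the unfolded protein response, was at -0.22, -0.29, -0.12 and -0.13 in ICSS and -0.17, -0.13, -0.16 and -0.057 in Sham pools. Its difference was -0.059 (SE 0.059, limma adjusted p = 0.706), and the 3 features ranged from -0.15 to 0.011. Edem1, the gene of a lectin for degradation substrates, differed by 0.081 (SE 0.067), but its 3 features gave between -0.15 and 0.32. Derl1, which encodes a membrane channel component, differed by 0.12 (SE 0.063) and Selenos, a selenoprotein of the same complex, by -0.012 (SE 0.080). Chac1, Canx, Edem1 and Herpud1 are the 4 genes whose features disagreed in sign.

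The translocon, through which new proteins enter the ER, had a higher mean in ICSS pools for all 3 genes. Sec61b, a subunit gene of the SEC61 channel, stood at 0.32, 0.39, 0.35 and 0.28 in ICSS and 0.25, 0.16, 0.22 and 0.18 in Sham pools. The groups did not overlap, and the difference was 0.13 (SE 0.053, limma adjusted p = 0.342). Ssr1, a gene of the translocon-associated TRAP complex, was at 0.32, 0.38, 0.21 and 0.39 in ICSS but split in Sham, at 0.21 and 0.25 in replicates 1 and 2 and -0.34 and -0.45 in replicates 3 and 4. Sham replicates 3 and 4 lay below every ICSS pool and Sham replicates 1 and 2 within the ICSS range. The difference was 0.41 (SE 0.15, limma adjusted p = 0.324). Sec61a1, the channel subunit gene itself, differed by 0.062 (SE 0.054). Of the thiol oxidases that recharge disulfide isomerases, Ero1a differed by -0.11 (SE 0.090) and Ero1b by 0.064 (SE 0.084).

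**Figure D3:**
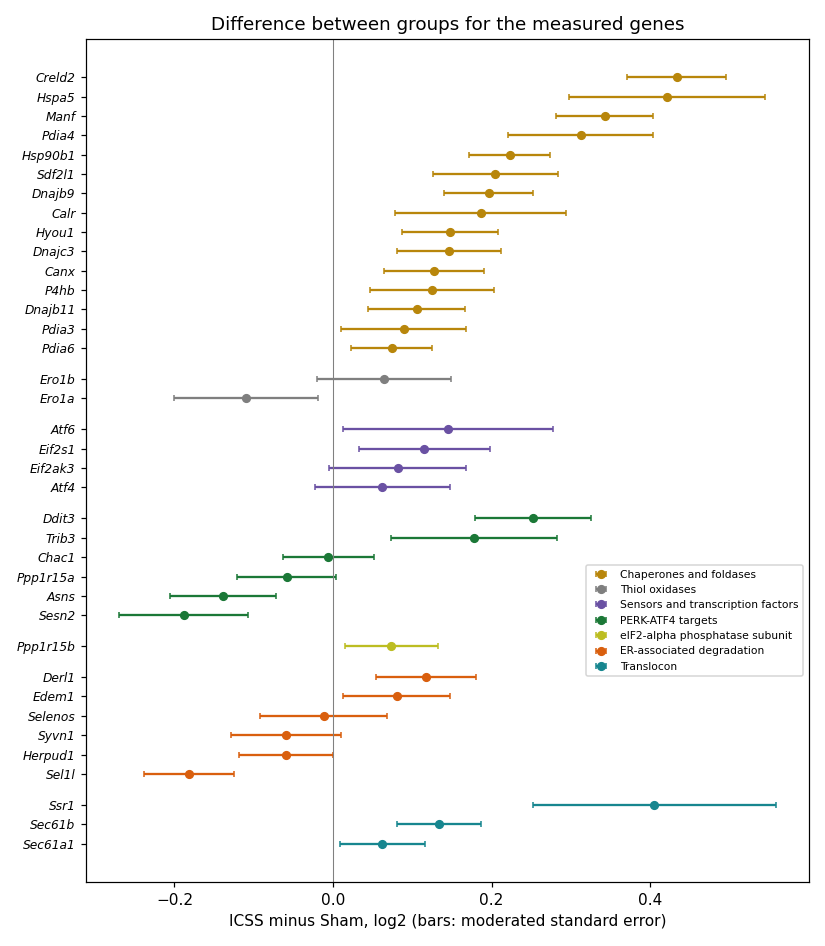
ICSS minus Sham difference on the log2 scale for the 37 measured genes, grouped by role; bars are moderated standard errors of limma. All 15 chaperone and foldase genes lie to the right of 0, from 0.074 for Pdia6 to 0.43 for Creld2, and the PERK-ATF4 targets and degradation genes lie on both sides.

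Genes of the same pathways outside the list of 40 were read from further lists. Of 150 such genes 140 were measured, and their median difference was 0.024, with 0 called, 20 higher and 7 lower at an unadjusted limma p below 0.05. Over all named genes 6.79% were higher and 6.36% lower at that threshold, which is the comparison for each further list as well. Among 29 other folding and glycosylation genes 17 had a higher and 12 a lower mean, with a median of 0.024 beside 0.19 over the 15 listed chaperone and foldase genes. The lowest p values in that list belonged to lower genes: Creld1, the membrane-anchored relative of Creld2, differed by -0.27 (SE 0.070, limma adjusted p = 0.187) and Mogs, the gene of the glucosidase that starts glycan trimming, by -0.21 (SE 0.064). Of 16 other degradation genes 7 were higher and 9 lower in mean, with 0 past an unadjusted p of 0.05. The ubiquitin-conjugating enzyme gene Ube2j1 differed by 0.26 (SE 0.14), with Sham replicate 2 at -0.64 far below the other pools, and Erlec1 by -0.093 (SE 0.055).

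Of the other genes of protein entry into the ER, 17 of 19 had a higher mean in ICSS pools, 5 of them at an unadjusted p below 0.05, with a median of 0.087. Their mean per pool was 0.13 to 0.17 over the ICSS pools and 0.017 to 0.081 over the Sham pools. Srp54a, a subunit gene of the signal recognition particle, differed by 0.20 (SE 0.060, limma adjusted p = 0.237) and Srprb, a subunit gene of its receptor, by 0.16 (SE 0.056). In transport from ER to Golgi 10 of 16 genes had a higher mean, with Sar1a, the gene of the GTPase that starts COPII coats, at 0.19 (SE 0.055, limma adjusted p = 0.223) and Sec13, a COPII coat gene, at 0.17 (SE 0.061).

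Among 21 other sensors and regulators 9 had a higher and 12 a lower mean. Mbtps1, the gene of the site-1 protease that cleaves ATF6 in the Golgi, was lower in every ICSS pool, at -0.32, -0.35, -0.27 and -0.30, than in the Sham pools, at -0.15, -0.039, 0.12 and 0.12. The difference was -0.32 (SE 0.071, limma adjusted p = 0.152). Eif2ak4, the gene of GCN2, the eIF2-alpha kinase of amino acid shortage, differed by -0.30 (SE 0.072, limma adjusted p = 0.166), also without overlap of the groups.

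Of 27 other ATF4-responsive genes 19 had a higher mean, 6 higher and 1 lower at an unadjusted p below 0.05, with a median of 0.088. Atf5, a transcription factor gene of the integrated stress response, stood at 0.14, 0.25, 0.43 and 0.32 in ICSS and -0.012, -0.096, -0.16 and -0.20 in Sham pools. It differed by 0.40 (SE 0.073, limma adjusted p = 0.107). Stc2, the gene of the secreted glycoprotein stanniocalcin 2, stood at 0.45, 0.54, 0.73 and 1.04 in ICSS and 0.17, 0.11, -0.073 and -0.098 in Sham pools. It differed by 0.66 (SE 0.12, limma adjusted p = 0.115). All ICSS pools lay above all Sham pools for 3 of the 27 genes, these 2 included, against 4.66% of all named genes. This held for 0 of the 6 listed targets. The mean over the 27 genes overlapped between groups, at -0.087 to 0.092 in ICSS pools and -0.15 to -0.067 in Sham pools. Of 12 aminoacyl-tRNA synthetase genes, which ATF4 also induces, 5 had a higher and 7 a lower mean, with Nars1 at 0.17 (SE 0.053) and Eprs1 at 0.16 (SE 0.058).

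The heat shock genes, which answer to HSF1 rather than to ER stress and here include the mitochondrial Hspd1 and Hspe1, were higher in mean in all 18 cases. Their median difference was 0.24. At an unadjusted limma p below 0.05, 11 of the 18 were higher, against 6.79% of all named genes. All ICSS pools lay above all Sham pools for 9 of the 18, against 4.66%. Cryab, a small heat shock protein gene, differed by 1.47 (SE 0.20, limma adjusted p = 0.0502) and Chordc1, the gene of an HSP90 cochaperone, by 0.30 (SE 0.053, limma adjusted p = 0.0972). The mean per pool was -0.071, 0.061, 0.13 and 0.49 in ICSS replicates 1 to 4. Its spread (SD 0.24) was wider than that of the ER chaperone mean in the same pools (SD 0.020). Over the 14 genes left without Hspa1a, Hspa1b, Hspb1 and Cryab, the SD was 0.14 and ICSS replicate 4 stood at 0.27. ICSS replicate 4, the highest pool for the heat shock genes, was at 0.060 for the ER chaperones beside 0.016 to 0.047 in the other ICSS pools.

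**Figure D4:**
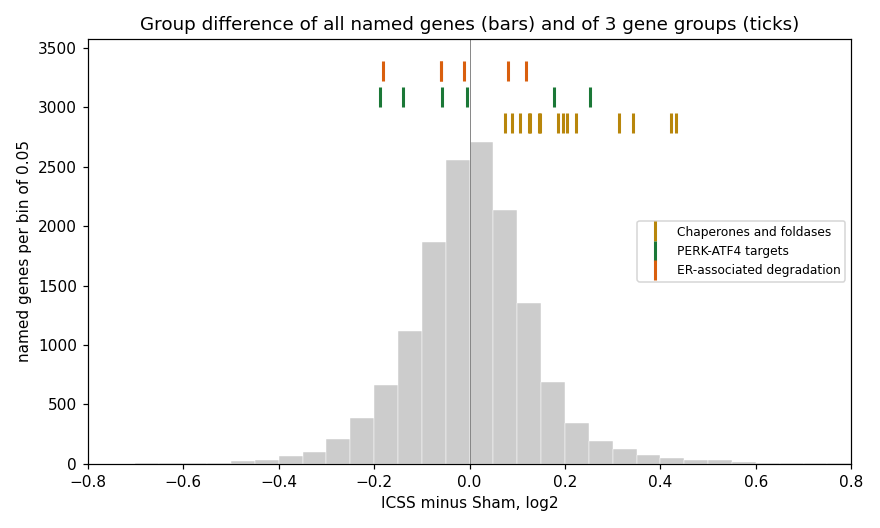
Number of named genes (grey bars, bins of 0.05) by ICSS minus Sham difference on the log2 scale, drawn from -0.8 to 0.8, with ticks above for the 15 chaperone and foldase, 6 PERK-ATF4 target and 6 ER-associated degradation genes. Every chaperone tick lies right of the centre, and Creld2 at 0.43 exceeds 98.9% of the named genes, and the ticks of the other groups lie on both sides.

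Against the reference, 4 of the 37 genes were above 0 and 6 below 0 on all arrays. Of the 15 chaperone and foldase genes 13 had a mean below the reference in Sham pools and 5 in ICSS pools. Markers of other cells gave the following values beside the chaperone result. The choroid plexus list had a higher ICSS mean for 7 of 9 genes, with overlapping pools. Ttr, the transthyretin gene, ran from -1.24 to 0.31 over the ICSS group and from -2.41 to 1.03 over the Sham group. Of 7 oligodendrocyte markers 6 had a higher mean, with pool means of -0.21 to 0.43 in ICSS and -0.76 to 0.081 in Sham. Of 8 astrocyte markers 6 had a higher mean, at -0.078 to 0.11 against -0.19 to -0.032. Of 8 microglial markers 2, of 8 endothelial markers 5 and of 9 meningeal and pericyte markers 6 had a higher mean, all with overlapping pool means. The 9 hippocampal neuron markers had 3 higher and 6 lower means. The part of cell composition in the chaperone values was not tested.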

How the data were processed

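The authors deposited 1 log2 ratio of pool to reference per feature and array, for 45220 features on 8 arrays. Limma is named without a version per the submitters' processing notes, and the sources used here give neither background correction, normalization nor the base of the logarithm (log2, which limma gives, was assumed). The median absolute log2 ratio was 0.131609 on every array, so the deposited values had already been brought to an equal spread. Array medians lay between -0.0318 and 0.0162. Dim spots could not be filtered, as intensities of single spots were not analysed.

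Features were named through the platform annotation, updated through Entrez identifiers to the GRCr8 gene table: 25353 had 1 symbol, 48 several and 19819 none listed. Features of a gene were averaged, which gave 14871 genes and 19867 unnamed probes. ICSS and Sham were compared across all 34738 units with limma 3.58.1 in R 4.3.3 (lmFit, eBayes, no covariates, two-sided, prior of 3.83 degrees of freedom), with Benjamini-Hochberg adjustment over all units. The procedure was tested on simulated data.

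The genes, their roles, the further lists and the motifs were chosen with earlier results of these data known. Every measured gene is named; values in every pool are given for the 14 with the smallest p and for Hspa5, Xbp1, Atf6, Atf4, Ddit3 and Manf where measured, and 2 genes are named per further list, by p. Genes named outside this rule or given by pool beyond it (Herpud1, Trib3, Creld1, Mbtps1, Atf5 and Stc2, single pools of Calr and Ube2j1, and the marker Ttr) were chosen after their values were seen. The labels call the pools biological replicates. The sequence of 1 promoter element is not reported here.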

Additional observations from a re-analysis of the deposited data

Results flagged for a closer look

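Each group of 4 pools was searched for a pool far from the rest (a gap to its nearest neighbour that exceeds Dixon's 95% critical value as a share of the group's range), over the 37 genes, the chaperone and PERK-ATF4 means and their difference, 80 groups in all. Only 1 was found, where chance gives about 1 in 20. Sel1l stood at 0.061 in Sham replicate 1, below 0.13 to 0.14 in the other Sham pools.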

How the results depend on the processing

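All 15 chaperone genes kept a higher mean in ICSS pools under the 13 of 17 alternatives that change group differences at all. Equal spread, the replicate block, robust empirical Bayes and named genes only leave the differences as they are. With all pools 7 of the 15 genes were apart between groups, against 4.66% of all named genes that were apart and higher. Shares over all named genes were computed for the main setting only. The count was 5 after centring each array or quantile normalization and 6 with the median over features. Leaving out a pool cannot lower this count, so the 7 to 9 found that way do not measure its stability. With any 1 pool left out, 6 to 9 were higher at an unadjusted limma p below 0.05. The share of all named genes was 6.79% with all pools and was not computed with a pool left out. The difference of the chaperone mean ran from 0.199 to 0.220 and that of the PERK-ATF4 mean from -0.016 to 0.029 with any 1 pool left out, and the latter was -0.0041 after quantile normalization. The chaperone difference was 0.182 without Creld2 and Manf, which were the members with the smallest p. The gap between both means ran from 0.180 to 0.235. Calls were fewer or more with other settings: 16 units were called in all, 0 with the replicate number as a replicate block, 34 with array quality weights, and 0 to 153 with any 1 pool left out (153 without ICSS replicate 1, 0 without ICSS replicate 2 or 3). Among the listed genes 0 to 1 were called with 1 pool left out. Creld2 was the 1 called without ICSS replicate 1 (limma adjusted p = 0.0457), with array quality weights (0.0421) and with named genes only (0.0400, fewer tests). With each feature on its own 2 were called, both at the edge of the threshold. The number of all features called in that fit is not given here. The cause of the other changes was not tested. Same-numbered ICSS and Sham pools deviated together at r = -0.053 to 0.058, and the highest r with another number was 0.068 to 0.179. Each ICSS pool was thus less like its same-numbered Sham pool than like some other Sham pool. Since 1 value is set against the highest of several, this order is common without any structure. It does not settle whether the numbers are paired. A batch that spans several numbers was not tested. Under the block Creld2 had an adjusted p of 0.157. Signs turned for Chac1 (-0.035 to 0.027 with any 1 pool left out, 0.0020 with array weights, 0.0083 without ICSS replicate 3, 0.027 without Sham replicate 4) and Selenos (-0.061 to 0.034 with any 1 pool left out, 0.034 and 0.00099 without ICSS replicates 2 and 3, 0.020 and 0.022 without Sham replicates 1 and 2), both near 0. Scaling arrays to an equal standard deviation, added after seeing the data, changed no listed call. The 8 arrays and unknown spot brightness limit what can be called.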

Other observations

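The mean of the 6 PERK-ATF4 targets took the same 2 levels in both groups. It was between -0.023 and -0.0067 in replicates 1 and 2 of ICSS and Sham and between 0.10 and 0.12 in replicates 3 and 4 of both. The genes behind this step were partly different in each group. Ddit3 and Sesn2 were higher in replicates 3 and 4 of both groups. Trib3 was so in ICSS only, at -0.42, -0.44, 0.013 and -0.15 against -0.55, -0.31, -0.44 and -0.39 in Sham. Ppp1r15a, Asns and Chac1 were so in Sham only. Sham replicates 1 and 2 also differed from Sham replicates 3 and 4 for Atf6 (0.14 and 0.18 against -0.28 and -0.44) and Ssr1 (0.21 and 0.25 against -0.34 and -0.45), while the ICSS pools of these genes did not split in that way. The labels give no batch for these numbers.

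The Creld pair ran in opposite directions. Creld2 was higher in every ICSS pool than in every Sham pool, and Creld1 was lower in every ICSS pool, at -0.046, -0.080, -0.13 and -0.086, than in the Sham pools, at 0.029, 0.13, 0.24 and 0.33. Neither passed the adjusted threshold in limma.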
